A study of Homo sapiens with 8 samples.

Results

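The genes examined were the AP-1 and immediate early genes FOS, FOSB, FOSL2, JUN, JUNB, JUND, EGR1, IER2 and DUSP1, chosen by name in the deposited gene tables. Of these 9 genes, 8 had a row among the 17912 genes of the tables, and the same 8 were among the 15542 genes tested for a difference. DUSP1 was not analysed here. The cells were of the established line NKM-1, a human myeloid leukemia, labelled wildtype. They had been treated for 48 h with SF153 at 30 uM, a compound that the series calls an inhibitor of UHM splicing factors, or with its solvent DMSO. The 4 SF153 and 4 DMSO libraries came from 2 batches, with 2 libraries of each treatment in each batch. Library names give the batch and then the number in it, SF153 2.1 being number 1 of batch 2. All were made from total RNA depleted of ribosomal RNA with a kit that keeps strand information. The labels do not say that the libraries of a batch came from separate cultures, so each p-value reflects the spread among the libraries alone, and this spread may be technical.

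AP-1 is a transcription factor made of a pair of proteins joined by leucine zippers, one usually from the JUN family (JUN, JUNB, JUND) and the other from the JUN, FOS or ATF families. FOS proteins do not pair with each other and need a JUN partner. FOS, FOSB, JUN, JUNB and EGR1 are immediate early genes, transcribed within minutes of a stimulus without new protein synthesis, largely through MAP kinases acting on SRF with its ELK partners and on CREB. Their mRNAs are short-lived, and AU-rich elements recruit the machinery that degrades them. In myeloid cells AP-1 and EGR1 are known for roles in monocyte and macrophage differentiation.

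The promoters of the members that passed the test, together with that of EGR1, are printed as description, and their part in the differences was not tested. Each runs from 250 bases before to 50 bases after the RefSeq gene start (build GRCh38.p14), 5′ to 3′ on the gene's own strand. The windows are chr19:45467746-45468045 (+) for FOSB, chr14:75278578-75278877 (+) for FOS, chr1:58783998-58784297 (−) for JUN, chr19:12791236-12791535 (+) for JUNB and chr5:138465229-138465528 (+) for EGR1. Capitals mark TGACG, the core of the cyclic AMP response element bound by CREB, on either strand (CGTCA), and the CArG box bound by SRF.
FOSB: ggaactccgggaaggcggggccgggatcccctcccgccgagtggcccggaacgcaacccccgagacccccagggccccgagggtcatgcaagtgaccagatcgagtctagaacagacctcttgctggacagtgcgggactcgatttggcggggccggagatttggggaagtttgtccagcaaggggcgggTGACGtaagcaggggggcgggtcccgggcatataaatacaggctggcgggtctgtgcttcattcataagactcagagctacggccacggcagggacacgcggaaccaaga
FOS: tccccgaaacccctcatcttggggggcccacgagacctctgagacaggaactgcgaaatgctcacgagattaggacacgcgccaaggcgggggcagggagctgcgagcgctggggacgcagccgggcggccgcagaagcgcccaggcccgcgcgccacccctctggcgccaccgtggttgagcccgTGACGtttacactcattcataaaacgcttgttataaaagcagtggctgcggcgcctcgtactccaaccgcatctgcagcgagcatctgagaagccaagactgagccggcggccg
JUN: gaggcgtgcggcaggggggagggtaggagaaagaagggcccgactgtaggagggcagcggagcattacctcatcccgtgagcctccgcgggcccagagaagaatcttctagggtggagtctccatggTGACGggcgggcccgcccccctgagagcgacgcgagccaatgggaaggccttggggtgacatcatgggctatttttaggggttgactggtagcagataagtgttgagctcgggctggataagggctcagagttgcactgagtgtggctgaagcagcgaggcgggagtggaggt
JUNB: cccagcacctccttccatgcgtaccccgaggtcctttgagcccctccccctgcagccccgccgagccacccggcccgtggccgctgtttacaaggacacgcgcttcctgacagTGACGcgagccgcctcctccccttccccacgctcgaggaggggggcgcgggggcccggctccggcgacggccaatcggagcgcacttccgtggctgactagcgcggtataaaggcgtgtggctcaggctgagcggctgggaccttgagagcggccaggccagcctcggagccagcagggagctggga
EGR1: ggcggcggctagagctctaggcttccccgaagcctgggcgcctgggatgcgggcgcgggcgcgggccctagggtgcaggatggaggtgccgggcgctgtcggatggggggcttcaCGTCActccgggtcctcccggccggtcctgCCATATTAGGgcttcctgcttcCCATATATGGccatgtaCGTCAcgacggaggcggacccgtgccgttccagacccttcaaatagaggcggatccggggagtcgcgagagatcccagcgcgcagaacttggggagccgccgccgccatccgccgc

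All 8 members had a promoter window, and all 8 held TGACG on one strand or the other, against 24.6% of the 35116 human promoter windows of the same length. Counting from the gene start as base 1, with no base 0, the match began at -64 in FOS, -60 in FOSB, -123 in JUN and -137 in JUNB. The full palindrome TGACGTCA, which contains the core on both strands, was present in JUND alone among the members, at -200, and in 1.8% of all windows. TGACTCA, the classical AP-1 site, lay only in the FOSL2 window, at 5, and in 4.9% of all windows. Within these windows the CArG box was found in EGR1 alone, as CCATATTAGG at -105 and CCATATATGG at -83, and in 1.3% of all windows. Bases further upstream were not searched, so sites there in the other members would have been missed. TATAAA was present in FOS at -33, FOSB at -30 and JUNB at -31, and in 11.5% of all windows, with both strands searched. These are matches of letters and not measured binding sites. Gene positions given further on come from GENCODE, whose gene starts can differ from the RefSeq starts used here. The JUN and FOSL2 windows lie within the GENCODE positions of those genes.

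The values are the authors' per-length signal, a TPM-type measure whose totals differ between libraries. They allow levels to be compared between genes, but the read depth behind them is unknown. In the SF153 libraries FOS had the highest mean level of the members (194.9), followed by IER2 (115.3), FOSL2 (82.53), JUNB (69.12), EGR1 (29.35), JUND (27.8), FOSB (18.53) and JUN (13.0). FOSL2 and JUNB overlapped between libraries there, as did EGR1 and JUND, while the other neighbours in that order did not overlap. In the DMSO libraries the order was FOS (245.9), IER2 (125.7), FOSL2 (91.94), JUNB (89.02), FOSB (39.46), JUND (38.54), EGR1 (33.23) and JUN (17.23). FOSL2 overlapped JUNB, and JUND overlapped both FOSB and EGR1. FOSB thus stood above EGR1 in every DMSO library and below EGR1 in every SF153 library.

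Differences were tested with limma on log2(signal + 1), a scale that understates changes of low genes, and a gene was called at an adjusted p under 0.05 over all tested genes. With the authors' values, 4 of the 8 members were called lower in SF153 (FOS, FOSB, JUN and JUNB) and 0 higher, where 24.3% of all tested genes were called lower and 13% higher. All 8 members had a lower mean log2(signal + 1) in SF153, as did 8187 of the 15542 tested genes. In 7 of the 8 every SF153 library lay below every DMSO library, which was also so for 23.6% of all tested genes. The median log2 difference was -0.35 over the 8 members and -0.03 over all tested genes. Only FOSB kept its call under each of the 22 alternatives run. The direction of FOS, FOSL2, EGR1 and IER2 reversed under other scalings, as described further on. In bulk RNA, fewer cells of a type and less RNA per cell cannot be told apart.

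**Figure D1:**
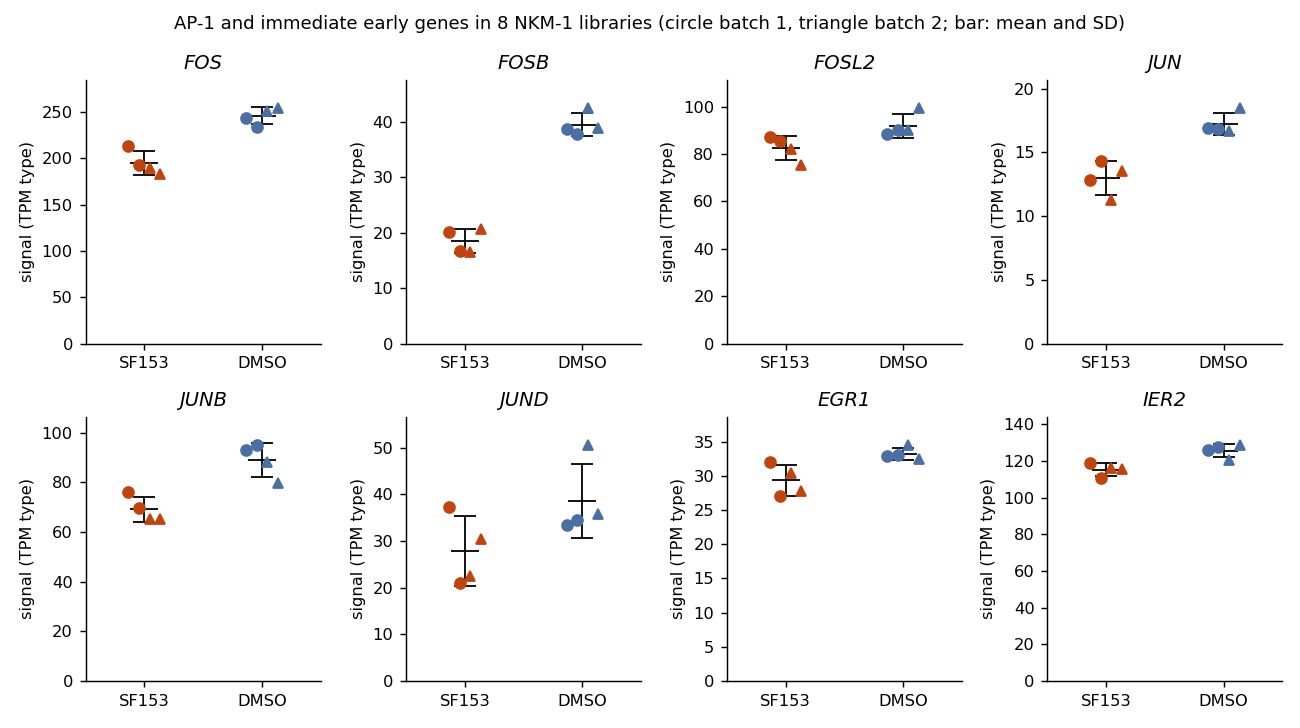
Signal of each member (y axis, authors' TPM-type signal, starting at 0) in the 4 SF153 and 4 DMSO libraries, as circles for batch 1 and triangles for batch 2, with mean and SD. FOSB lies between 16.61 and 20.66 in SF153 and between 37.79 and 42.51 in DMSO, while JUND overlaps between the treatments; the direction of FOS, FOSL2, EGR1 and IER2 depends on the scaling.

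FOSB had the largest difference of the 8 members. It encodes a FOS family protein that pairs with JUN proteins, and an alternatively spliced transcript is known to encode the truncated and more stable ΔFosB. FOSB had signals of 20.15, 16.71, 16.61 and 20.66 in SF153 libraries 1.1, 1.2, 2.1 and 2.2, against 38.68, 37.79, 42.51 and 38.86 in the corresponding DMSO libraries. No library of either treatment came near the other treatment's range. The means were 18.53 ± 2.17 in SF153 and 39.46 ± 2.08 in DMSO (SD, n = 4 each), a ratio of 0.47. The log2 difference was -1.06 ± 0.10 (SE; limma adjusted p = 6.14e-05), with a 95% interval of -1.27 to -0.84, and 7.1% of tested genes had a lower one. It was -1.02 within batch 1 (limma adjusted p = 0.00922) and -1.09 within batch 2 (limma adjusted p = 0.00906). Without 1 library at a time it stayed between -1.11 and -1.01. FOSB (chr19:45467995-45475179, + strand, GRCh38) overlaps ERCC1 on the opposite strand without sharing exon bases, and ERCC1 had 47.87 ± 5.35 in SF153 and 55.85 ± 6.2 in DMSO. The gene-level values do not separate FOSB from ΔFosB transcripts.

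FOS, the founding FOS family member, had signals of 213.6, 192.6, 189.7 and 183.5 in SF153, against 244.2, 233.7, 251.2 and 254.5 in DMSO. The groups did not overlap, and the SF153 libraries of batch 2 were the lowest. With the authors' values FOS fell to 194.9 ± 13.1 in SF153, against 245.9 ± 9.2 in DMSO (log2 difference -0.34 ± 0.07, limma adjusted p = 0.00408), but quantile normalization (0.13) and the removal of mitochondrial and small RNA genes (0.01) reversed its sign with no call. The log2 difference was -0.24 in batch 1 (limma adjusted p = 0.0885) and -0.44 in batch 2 (limma adjusted p = 0.00766). The gene lies at chr14:75278774-75282230 on the + strand and has 4 exons.

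FOSL2, which encodes the FOS family protein FRA2, had 87.05, 85.6, 82.02 and 75.44 in SF153, against 88.36, 89.97, 90.01 and 99.42 in DMSO. The groups did not overlap, although SF153 1.1 and DMSO 1.1 were close. FOSL2 did not pass the test, with means of 82.53 ± 5.18 in SF153 and 91.94 ± 5.04 in DMSO and a log2 difference of -0.16 ± 0.07 (95% interval -0.32 to 0.01, limma adjusted p = 0.125). The gene lies at chr2:28392448-28417312 on the + strand and has 4 exons in its longest transcript.

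The makeup of the FOS family could be read within each library, where a single scaling factor cancels but a correction that depends on level does not. FOSB over FOS was 0.0943, 0.0867, 0.0876 and 0.113 in SF153, against 0.158, 0.162, 0.169 and 0.153 in DMSO, with means of 0.0953 ± 0.012 in SF153 and 0.16 ± 0.0069 in DMSO (SD, n = 4 each). The groups did not overlap, so FOSB was lower relative to FOS in every SF153 library. FOSL2 over FOS was 0.407, 0.444, 0.432 and 0.411 in SF153, against 0.362, 0.385, 0.358 and 0.391 in DMSO, again without overlap but with the SF153 libraries above. Of the summed signal of FOS, FOSB and FOSL2, FOSB took 6.27% ± 0.79 in SF153 and 10.5% ± 0.48 in DMSO, and FOSL2 took 27.9% ± 1.0 in SF153 and 24.4% ± 0.88 in DMSO. The share of FOS was 65.8% ± 0.54 in SF153 and 65.2% ± 0.54 in DMSO and overlapped. These ratios are descriptions of the authors' values with no test. They show unequal differences among the 3 genes and not which of them was constant. After quantile normalization the log2 difference was 0.012 for FOSL2 and 0.133 for FOS. With the length and level trend removed it was -0.052 for FOSL2 and 0.095 for FOS. FOSL2 thus stood below FOS under both, the reverse of the ratio above. FOSB stayed below FOS under both, at -0.853 and -0.877.

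**Figure D2:**
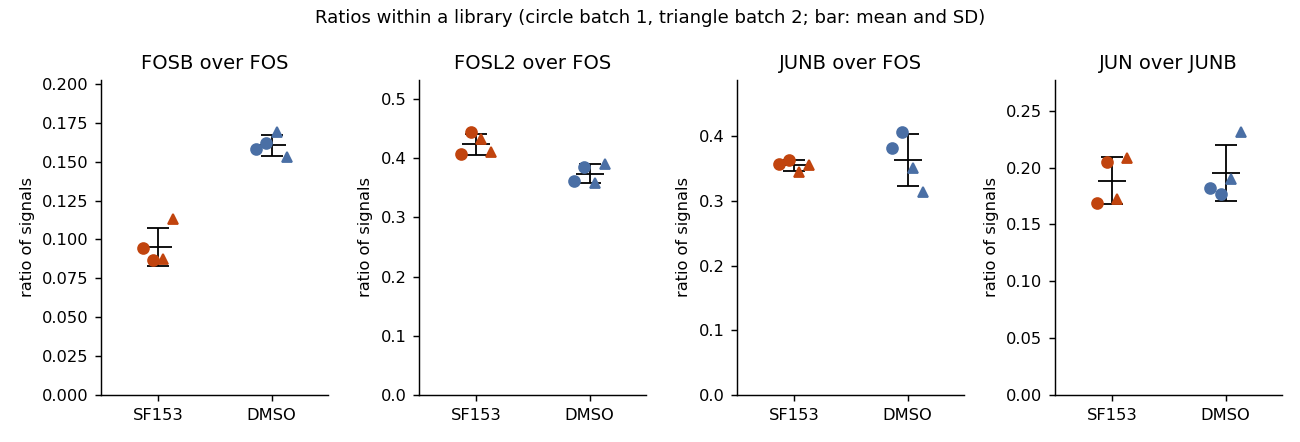
Ratios of the signals of pairs of members within each library (y axis, no unit, starting at 0), for SF153 and DMSO libraries, with circles for batch 1, triangles for batch 2 and mean with SD. FOSB over FOS lies between 0.0867 and 0.113 in SF153 and between 0.153 and 0.169 in DMSO. FOSL2 over FOS is higher in all SF153 libraries, and JUNB over FOS and JUN over JUNB overlap. These are the authors' values, and quantile normalization changed how FOSL2 and JUNB stood to FOS.

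The JUN family members, which supply the partner that every FOS protein needs, had log2 differences between -0.47 and -0.36. JUN had 12.85, 14.34, 11.24 and 13.57 in SF153, against 16.91, 16.82, 16.71 and 18.48 in DMSO. All SF153 libraries were lower than all DMSO libraries. JUN fell to a mean of 13.0 ± 1.32 in SF153, against 17.23 ± 0.835 in DMSO (log2 difference -0.39 ± 0.10, limma adjusted p = 0.0125). It was -0.29 in batch 1 (limma adjusted p = 0.188) and -0.48 in batch 2 (limma adjusted p = 0.0974), so the call rests on both batches together. JUN is a single-exon gene at chr1:58780788-58784327 on the - strand.

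JUNB, a JUN family protein with weaker activating capacity than JUN on many promoters, had 76.19, 69.89, 65.26 and 65.14 in SF153, against 93.12, 94.96, 88.08 and 79.91 in DMSO. The lowest DMSO library, 2.2, lay just above the highest SF153 library, 1.1. JUNB fell to a mean of 69.12 ± 5.21 in SF153, against 89.02 ± 6.74 in DMSO (log2 difference -0.36 ± 0.08, limma adjusted p = 0.00714). The difference was -0.36 in each batch, with limma adjusted p = 0.0373 in batch 1 and 0.0411 in batch 2. JUNB is a single-exon gene at chr19:12791496-12793315 on the + strand and overlaps HOOK2 on the opposite strand without shared exon bases. HOOK2 had 54.81 ± 3.64 in SF153 and 37.86 ± 6.06 in DMSO, the opposite direction to JUNB.

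JUND, the JUN family member usually expressed without a stimulus, varied most between libraries. It had 37.26, 20.93, 22.53 and 30.48 in SF153, against 33.48, 34.43, 50.47 and 35.79 in DMSO. SF153 1.1 lay above 3 of the 4 DMSO libraries, and the groups overlapped. The coefficient of variation was 27.2% in SF153 and 20.8% in DMSO, where the other 7 members had at most 11.7%. The means were 27.8 ± 7.57 in SF153 and 38.54 ± 8.01 in DMSO, and the log2 difference of -0.47 ± 0.19 did not pass the test (limma adjusted p = 0.0823). Without SF153 1.1 it was -0.62 and passed (limma adjusted p = 0.0245). JUND is a single-exon gene at chr19:18279760-18281622 on the - strand. Of the summed JUN family signal, JUNB took 63.1% ± 3.6 in SF153 and 61.5% ± 4.1 in DMSO, JUN took 11.9% ± 1.5 in SF153 and 12.0% ± 1.3 in DMSO, and JUND took 25.0% ± 4.5 in SF153 and 26.5% ± 4.3 in DMSO. All 3 shares overlapped between the treatments. With the authors' values the ratios JUN over FOS (0.067 ± 0.0084 in SF153, 0.0701 ± 0.0028 in DMSO) and JUNB over FOS (0.355 ± 0.0078 in SF153, 0.363 ± 0.04 in DMSO) overlapped too. After quantile normalization the log2 differences were -0.186 for JUN and -0.175 for JUNB, against 0.133 for FOS.

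EGR1 encodes a zinc finger transcription factor outside AP-1 whose gene is controlled by SRF. EGR1 had 32.01, 27.08, 30.48 and 27.82 in SF153, against 32.93, 33.07, 34.48 and 32.45 in DMSO. The groups did not overlap, by a margin smaller than the SD of either. EGR1 did not pass the test, with means of 29.35 ± 2.3 in SF153 and 33.23 ± 0.875 in DMSO and a log2 difference of -0.18 ± 0.08 (95% interval -0.35 to 0.00, limma adjusted p = 0.108). EGR1 has 2 exons and lies at chr5:138465490-138469315 on the + strand.

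IER2, an immediate early gene for a nuclear protein, had 118.6, 110.5, 116.3 and 115.8 in SF153, against 125.7, 127.8, 120.7 and 128.5 in DMSO. Its coefficient of variation in SF153 (2.96%) was the smallest of the 8 members, and its groups did not overlap. It did not pass the test, with means of 115.3 ± 3.42 in SF153 and 125.7 ± 3.56 in DMSO and a log2 difference of -0.12 ± 0.06 (95% interval -0.26 to 0.01, limma adjusted p = 0.131). IER2 (chr19:13150415-13154908, + strand) shares 756 exon bases with the antisense gene AC011446.2, whose signal was 0 to 1.255 in SF153 and 0 to 2.461 in DMSO. The sources used here do not give whether the authors' counting used strand.

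**Figure D3:**
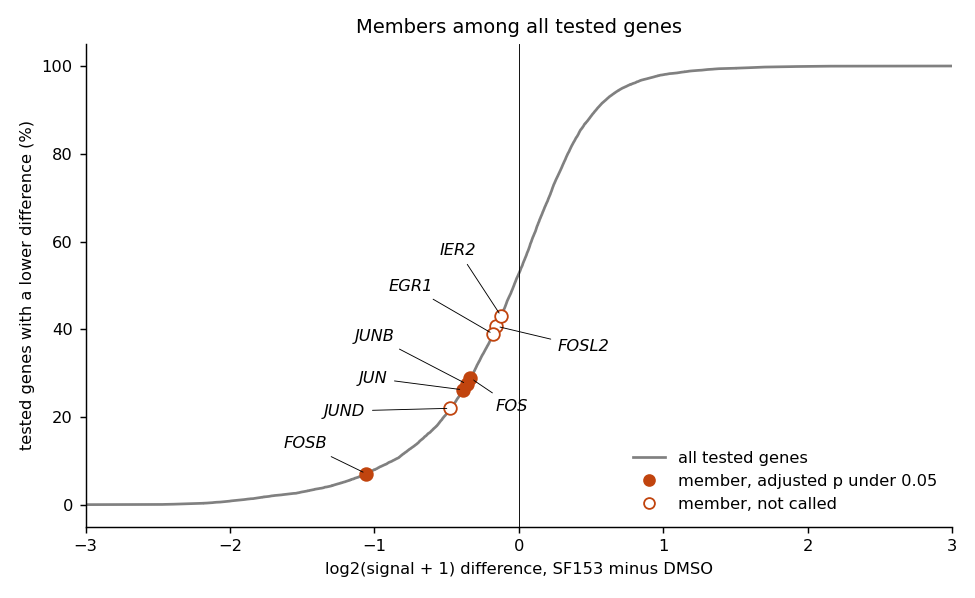
Share of the 15542 tested genes with a lower log2(signal + 1) difference (y axis, percent) against that difference (x axis, SF153 minus DMSO, authors' values); the grey line is all tested genes and points are the members, filled where limma's adjusted p is under 0.05. FOSB sits at 7.1%, JUND at 22.0%, JUN, JUNB and FOS between 26.2% and 28.9%, and the other 3 between 38.9% and 43.0%; other scalings reverse FOS, FOSL2, EGR1 and IER2.

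The size of these differences depended on how libraries were put on one scale, and the libraries did not have the same makeup. The summed signal of mitochondrial genes was 16.8% of the total in SF153 2.1 and in SF153 2.2, against 9.17% to 9.92% elsewhere. RN7SK, an abundant small nuclear RNA, made up 18.7% in SF153 1.1 and 18.2% in SF153 1.2, against 11.4% to 13.9% in the other 6. Total signal ranged from 828381 to 1027119. Their part in the members' differences was not tested beyond the scalings. With mitochondrial and small RNA genes removed before scaling to equal totals, the median log2 difference of all tested genes was 0.28, with 2114 genes lower and 5346 higher, against -0.03 with 3770 lower and 2015 higher for the authors' values. With the totals of all genes made equal the median was 0.08 (2750 lower, 2466 higher), and after quantile normalization it was 0.06 (2822 lower, 3225 higher).

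FOSB was called lower under every scaling, with log2 differences of -0.74 with mitochondrial and small RNA genes removed and -0.85 after quantile normalization. Relative to the median of all tested genes it was -1.02 with the authors' values and -1.02 with mitochondrial and small RNA genes removed. FOS, JUN and JUNB kept their call after median-of-ratios scaling (-0.26, -0.32 and -0.29) but not with equal totals (-0.20, -0.26 and -0.23; limma adjusted p = 0.094, 0.102 and 0.0917). Relative to the median of all tested genes, FOS was -0.30 with the authors' values and -0.27 with mitochondrial and small RNA genes removed, and JUN was -0.35 with the authors' values and -0.34 after that removal. After quantile normalization FOS stood at 0.07 relative to that median. IER2 was called higher with mitochondrial and small RNA genes removed (0.22, limma adjusted p = 0.0248), though at -0.06 relative to the median.

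**Figure D4:**
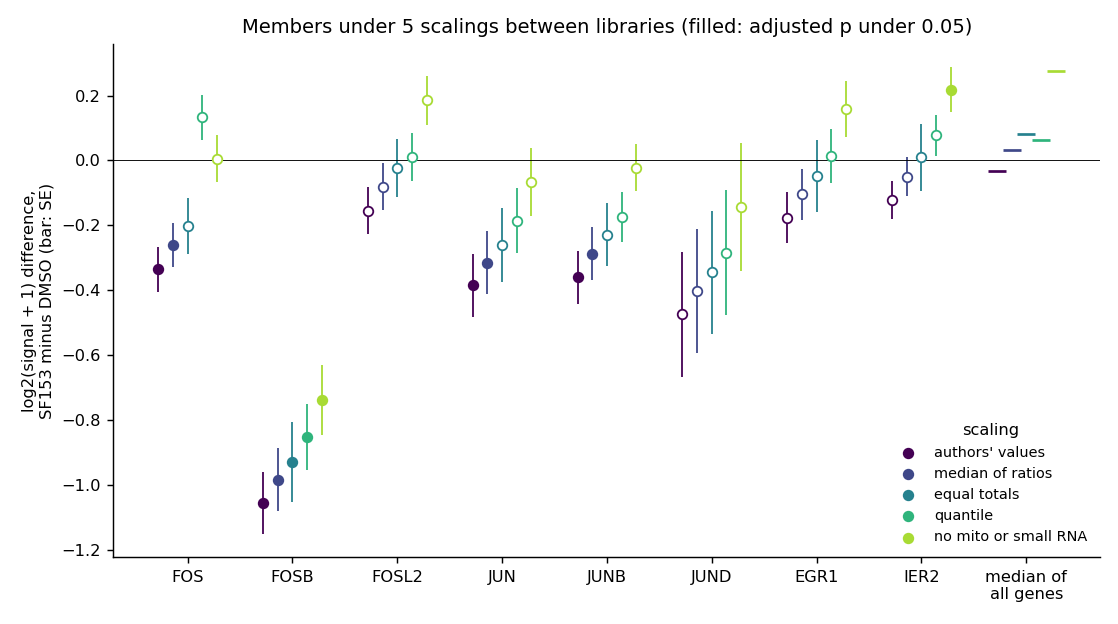
Log2(signal + 1) difference of each member, SF153 minus DMSO (y axis, bar: SE), under the authors' values and 4 other scalings in colour, filled where the adjusted p is under 0.05, with the median of all tested genes at the right. FOSB stays between -1.06 and -0.74 and filled throughout, while FOS, FOSL2, EGR1 and IER2 cross 0 under at least 1 scaling.

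Averaging the libraries of a treatment and batch, as if they were repeats of 1 sample, left FOSB called (-1.05, limma adjusted p = 0.0114) and FOS, JUN and JUNB not called (limma adjusted p = 0.0835, 0.077 and 0.0798) at log2 differences close to those of all libraries. Among the members that did not pass the test, the difference in batch 1 and in batch 2 was -0.05 and -0.26 for FOSL2, -0.27 and -0.68 for JUND, -0.16 and -0.19 for EGR1, and -0.15 and -0.10 for IER2. All 8 members thus had a negative difference in both batches with the authors' values, and the share of all tested genes with this is not given here. The product of treatment and batch was called for 0 of the 8 members and for 1.15% of all tested genes by limma, with unadjusted p-values of 0.0643 (FOS) to 0.983 (JUNB) from limma, so 0 of 8 were under 0.05 without adjustment with the authors' values. With equal totals 0 of 8 were called as well, but the unadjusted limma p was 0.00484 for IER2 (adjusted p = 0.105) and 0.0268 for JUNB (adjusted p = 0.193).

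The intronless JUN, JUNB and JUND had differences of -0.39, -0.36 and -0.47, IER2, with 1 exon in its longest and up to 2 in another transcript, had -0.12, and the spliced FOSB, FOS, EGR1 and FOSL2 had -1.06, -0.34, -0.18 and -0.16. Among all tested protein-coding genes with a GENCODE release 29 length, the median was -0.30 over 256 single-exon genes and -0.15 over 10788 genes with several exons, with the authors' values. TATAAA was held by the windows of FOSB, FOS and JUNB (-1.06, -0.34 and -0.36) and not by those of the other 5 members (-0.47 to -0.12).

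The genes most like each member in profile were found among 9243 protein-coding genes whose mean signal was 5 or more, by the root mean square difference of centred log2(signal + 1) profiles over the 8 libraries. For FOSB these were ABHD17B (0.0697) and NSMCE1 (0.0933), for FOS IRF2BP2 (0.0431) and TTC7A (0.044), and for JUN SEC13 (0.0479) and LIMS1 (0.0592). For JUNB they were COMMD3 (0.0383) and TASL (0.0422), for IER2 RUNX1 (0.0365) and ARMC8 (0.0404), for EGR1 PIK3CD (0.0427) and SPI1 (0.0433), and for FOSL2 OXA1L (0.0476) and CNOT2 (0.0498). JUND had the least close neighbours, PITPNM1 (0.138) and FRMD8 (0.142). No other member was eligible as a neighbour.

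Of 14 other family genes listed, 11 were in the tables and 10 were tested, of which 1 was called lower and 1 higher, where 24.3% of all tested genes were lower and 13% higher. The median log2 difference was -0.06 with the authors' values and above 0 under each of the 4 other scalings (0.01 to 0.27) and with the length and level trend removed (0.08). The lower one was BATF, a lymphoid and myeloid JUN partner, with 4.773 ± 1.38 in SF153 and 8.705 ± 1.32 in DMSO (-0.78, limma adjusted p = 0.0124). The higher one was MAFG, a small MAF protein that pairs with NRF2, with 91.61, 87.42, 91.77 and 93.83 in SF153, against 63.1, 61.61, 65.38 and 63.4 in DMSO (0.52, limma adjusted p = 0.000173). MAFG groups did not overlap, and MAFG kept its call under each of the 22 alternatives. ATF2, a JUN partner of the ATF family, had 37.05 ± 2.19 in SF153 and 37.43 ± 5.61 in DMSO, and the stress-induced ATF3 had 2.991 ± 0.76 in SF153 and 4.245 ± 0.438 in DMSO; neither passed the test.

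Of 34 other immediate early genes listed, 26 were in the tables and 23 were tested. Of these, 9 were called lower and 2 higher (median -0.23), where 24.3% of all tested genes were lower and 13% higher. With mitochondrial and small RNA genes removed 4 were lower and 6 higher (median 0.07). That removal left 2114 of all 15311 tested genes lower and 5346 higher, the counts to set beside this list and the next ones. SGK1, a serum- and stress-induced kinase, had 42.78, 32.97, 48.42 and 46.81 in SF153, against 14.88, 14.47, 19.88 and 18.26 in DMSO (log2 difference 1.29, limma adjusted p = 0.000145). Every SF153 library was above every DMSO library, the reverse of FOSB. PLK2, a polo-like kinase, had 38.31 ± 6.73 in SF153 and 83.07 ± 16.1 in DMSO (-1.09, limma adjusted p = 0.000636). RGS2, which restrains G protein signalling, had 9.57 ± 1.04 in SF153 and 19.55 ± 2.31 in DMSO (-0.96, limma adjusted p = 0.000222). The growth regulator MYC had 57.8 ± 11.9 in SF153 and 98.54 ± 3.02 in DMSO (-0.78, limma adjusted p = 0.00131). SGK1, PLK2, RGS2 and MYC kept direction and call under each of the 22 alternatives. The count of 11 calls was 7 without SF153 2.1, where 5 were lower.

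Of 16 MAP kinase phosphatases and ERK feedback genes listed, which switch off the kinases that induce AP-1, 11 were tested. With the authors' values 3 were called lower and 3 higher (median -0.18), where 24.3% of all tested genes were lower and 13% higher. The median was 0.15 with mitochondrial and small RNA genes removed, 0.03 after quantile normalization and 0.02 with the length and level trend removed. The phosphatases DUSP14 (2.859 ± 0.487 in SF153, 6.589 ± 1.37 in DMSO; limma adjusted p = 0.00201) and DUSP7 (15.92 ± 2.15 in SF153, 23.41 ± 2.1 in DMSO; limma adjusted p = 0.00497) fell. DUSP10, which acts on JNK and p38, rose to 12.42 ± 1.23 in SF153, against 7.035 ± 1.42 in DMSO (limma adjusted p = 0.00304). SPRED1, an inhibitor of RAS signalling, had 13.23 ± 0.868 in SF153 and 10.18 ± 1.46 in DMSO (0.36, limma adjusted p = 0.0362). The number called higher was 1 instead of 3 when any of SF153 1.1, 1.2 and 2.2 and DMSO 1.1, 1.2 and 2.2 was left out, and 2 without DMSO 2.1. The SPRED1 call was lost without SF153 1.1, 1.2 or 2.2 or DMSO 1.1, 1.2 or 2.2, at 0.31 to 0.36.

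All 19 listed MAP kinase cascade genes were tested. Of these, 5 were called lower and 1 higher (median -0.12), where 24.3% of all tested genes were lower and 13% higher. With mitochondrial and small RNA genes removed 2 were lower and 4 higher (median 0.21). The median was also above 0 after quantile normalization (0.05), with equal totals (0.01) and with the length and level trend removed (0.03). The kinase genes MAP2K3 (32.67 ± 6.85 in SF153, 53.33 ± 5.1 in DMSO; limma adjusted p = 0.0032) and MAP2K2 (44.95 ± 7.18 in SF153, 61.69 ± 4.77 in DMSO; limma adjusted p = 0.0117) fell. MAP2K5, the ERK5 kinase, rose to 27.6 ± 3.96 in SF153, against 19.13 ± 2.55 in DMSO (limma adjusted p = 0.0121). MAPK3, which encodes ERK1, had 16.62 ± 1.08 in SF153 and 18.13 ± 2.76 in DMSO, and MAPK14, which encodes p38α, had 87.76 ± 7.01 in SF153 and 87.73 ± 4.83 in DMSO; neither passed the test.

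Of 16 listed SRF, TCF and CREB regulators of immediate early promoters, 15 were tested. Calls numbered 7 lower and 0 higher (median -0.35), where 24.3% of all tested genes were lower and 13% higher. With mitochondrial and small RNA genes removed 2 were lower and 2 higher. SRF, the CArG box factor, had 6.996, 6.047, 4.593 and 5.112 in SF153, against 10.4, 9.464, 9.307 and 9.028 in DMSO (-0.67, limma adjusted p = 0.0039). Its groups did not overlap. The SRF partners ELK1 (5.19 ± 1.35 in SF153, 9.625 ± 1.03 in DMSO; -0.80, limma adjusted p = 0.0049) and ELK3 (5.701 ± 0.918 in SF153, 9.102 ± 1.87 in DMSO; -0.58, limma adjusted p = 0.0239) fell, as did the CREB relative ATF1 (6.257 ± 1.68 in SF153, 10.57 ± 1.73 in DMSO; -0.69, limma adjusted p = 0.0167). The ELK3 call was lost without SF153 1.1 or 2.1 or DMSO 1.1, 1.2 or 2.1 (-0.58 to -0.49), and the ATF1 call without DMSO 1.1 (-0.62). The count of 7 calls was 4 without SF153 1.1, without SF153 2.1 and without DMSO 1.1.

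All 10 listed factors of AU-rich mRNA decay and EGR1 repression were tested. Calls numbered 6 lower and 0 higher (median -0.34), where 24.3% of all tested genes were lower and 13% higher. With mitochondrial and small RNA genes removed 4 were lower and 1 higher. ELAVL1, which encodes the stabilizing protein HuR, had 16.9, 15.45, 15.86 and 13.93 in SF153, against 40.04, 40.32, 42.09 and 38.56 in DMSO (-1.32, limma adjusted p = 1.31e-05). The libraries of each treatment lay close together and far from the other treatment. KHSRP, which promotes decay, fell to 79.55 ± 7.17 in SF153, against 167.6 ± 8.94 in DMSO (limma adjusted p = 2.96e-05). ZFP36L2, a decay factor of the tristetraprolin family, fell to 47.48 ± 4.83 in SF153, against 90.35 ± 2.62 in DMSO (limma adjusted p = 5.77e-05). CNOT7, a deadenylase subunit, fell to 28.08 ± 2.13 in SF153, against 45.9 ± 4.84 in DMSO (limma adjusted p = 0.000462). These 4 kept their calls under each of the 22 alternatives. The EGR1 co-repressors NAB1 (22.73 ± 5.9 in SF153, 22.14 ± 2.21 in DMSO) and NAB2 (7.066 ± 1.15 in SF153, 6.971 ± 1.28 in DMSO) did not pass the test.

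Of 17 textbook targets of AP-1 and EGR1 listed, most of them described in other cell types, 11 were tested. With the authors' values 4 were called lower and 3 higher (median -0.48), where 24.3% of all tested genes were lower and 13% higher. With mitochondrial and small RNA genes removed 1 was lower and 4 were higher (median -0.15). The number lower was 2 without DMSO 1.1, 2 without DMSO 1.2 and 0 by limma with the length and level trend removed, while the number higher was 3 in each of these. VEGFA, an angiogenic growth factor, rose to 39.67 ± 6.92 in SF153, against 21.94 ± 4.19 in DMSO (0.83, limma adjusted p = 0.00325). PLAU, the urokinase protease, rose to 11.81 ± 1.28 in SF153, against 6.244 ± 0.904 in DMSO (0.83, limma adjusted p = 0.000878). The adhesion receptor CD44 fell to 158.7 ± 22.7 in SF153, against 244.9 ± 23.1 in DMSO (-0.63, limma adjusted p = 0.00224). The cytokine TNF had 4.305 ± 0.63 in SF153 and 6.495 ± 0.879 in DMSO (-0.50, limma adjusted p = 0.0221). The TNF call was lost without SF153 1.2 or 2.1 or DMSO 1.1 or 1.2 (-0.46 to -0.45). With the authors' values the called targets thus moved in both directions, as calls among all tested genes did.

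The called genes named from these lists kept their direction under each alternative run for them, batch 1 alone and batch 2 alone included; the genes named beside them that did not pass the test were not followed through the alternatives. The removal of mitochondrial and small RNA genes ended the calls of BATF (-0.52), DUSP7 (-0.21), MAP2K2 (-0.12), ATF1 (-0.41), ELK3 (-0.30) and TNF (-0.23). Quantile normalization ended those of CD44 (-0.25) and MAP2K2 (-0.28), and equal totals those of ELK3 (-0.47) and TNF (-0.39). Averaging the libraries of a treatment and batch ended the calls of DUSP7, SPRED1, MAP2K5, MAP2K2, ATF1, SRF and TNF at log2 differences close to those given.

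**Figure D5:**
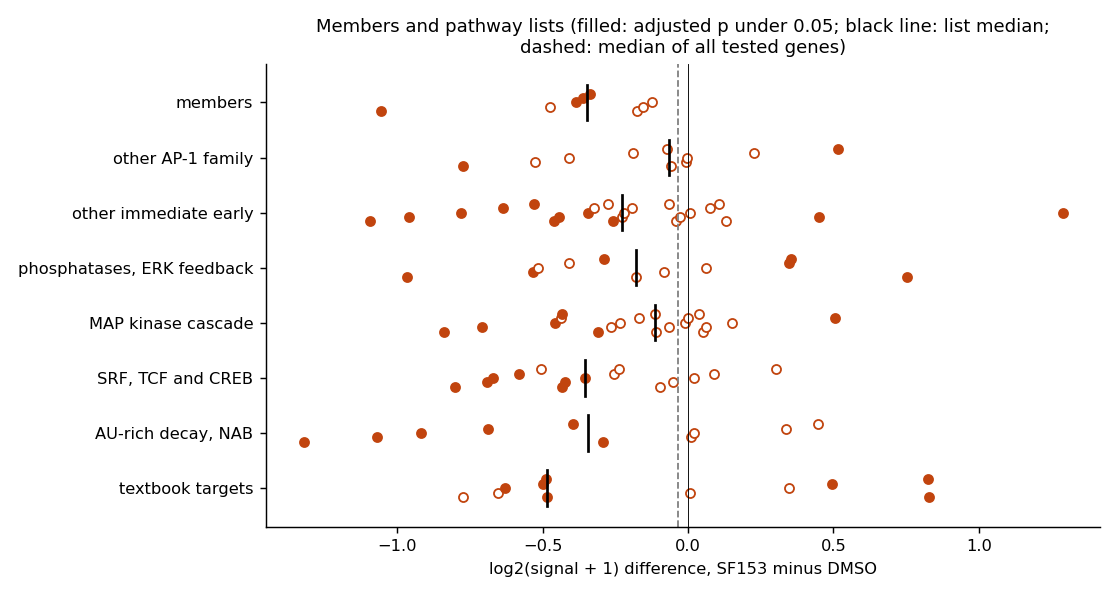
Log2(signal + 1) difference, SF153 minus DMSO with the authors' values (x axis), of each tested gene in the member group and the 7 pathway lists (rows), filled where the adjusted p is under 0.05; black lines mark list medians and the dashed line the median of all tested genes. The member median is -0.35 and that of all tested genes -0.03, and the medians of several lists turn above 0 with mitochondrial and small RNA genes removed.

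The labelled cell type was checked with marker genes. Of 12 myeloid markers 9 were in the tables, all with a mean signal of at least 1, and their sum was 1360 to 1600 in SF153 and 1810 to 1970 in DMSO. With the authors' values 4 of the 9 were called lower (MPO, CEBPA, LYZ and CSF1R) and 2 higher. The higher ones were CD33 (log2 difference 0.41, limma adjusted p = 0.0063) and ITGAM (0.42, limma adjusted p = 0.0182). Among all tested genes 24.3% were lower and 13% higher. Of 4 B cell markers, CD79A and CD22 were in the tables, and they differed in opposite directions. CD79A had 6.717 ± 3.7 in SF153 and 27.09 ± 1.94 in DMSO (limma adjusted p = 0.000797), and CD22 had 4.008 ± 0.453 in SF153 and 1.34 ± 0.935 in DMSO (limma adjusted p = 0.00878); their sum was 7.74 to 13.7 in SF153 and 25.1 to 30.0 in DMSO. Of 5 T cell markers only CD2 was in the tables, with 0 to 0.705 in SF153 and 5.08 to 6.07 in DMSO. The listed erythroid, megakaryocyte, epithelial and fibroblast markers were not analysed here. The part of these markers in the members' differences was not tested.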

How the data were processed

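RNA sequencing values of 8 NKM-1 libraries were analysed. The authors deposited 1 signal per gene and library, of a TPM type, which their file labels call both CPM and TPM. Column sums differed between libraries, so the values are not plain TPM as the design had assumed; the same test was used, and the sources used here do not give the scaling. Per the submitters' processing notes, the tools were CASAVA 1.8.2, Salmon, STAR and edgeR, listed with no roles, and the build was GRCh38. Of the 8 value columns, 4 were spelled differently from the labels and were matched by number, letter and index pair. Depth is unknown, so no counting interval is given.

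Differences were tested two-sided with limma (3.58.1, R 4.3.3; trended variance prior, no batch term) on log2(signal + 1) for genes whose mean signal reached 1, and were adjusted by the Benjamini-Hochberg method over all of them (threshold 0.05). On data simulated for SF153 against DMSO over 15542 genes, 67.0% of 200 genes changed by a log2 difference of 1 were recovered (81.1% where the mean signal was 10 or more), and 4.29% of calls were false. The simulated noise was independent between libraries, with no difference in makeup, and fewer genes changed than were called in the data (5785). These rates may therefore not hold for the data, and they leave out scaling and shared cultures. Batch labels pair the samples; across genes, batch 1 minus batch 2 differences had r = 0.0669 between treatments. Alternatives covered pseudocount, filter, 4 scalings, variance model, replicate block, averaging, each library, each batch and a trend on length and level. Positions come from GENCODE release 29 and promoters from RefSeq.

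Members and lists were chosen with earlier results of these data known. Genes named from a list are up to 4 called ones with the largest absolute log2 difference, of which 1 is not reported here; ATF2, ATF3, MAPK3, MAPK14, NAB1 and NAB2 were added for their roles after their values had been seen.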

Additional observations from a re-analysis of the deposited data

Results flagged for a closer look

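Within a treatment, 1 of the 4 libraries stood apart from the other 3 for 5 of the 68 gene and treatment groups checked; chance flags about 1 in 20 such groups. For FOSL2, DMSO 2.2 had a signal of 99.42 where the other DMSO libraries had 88.36 to 90.01. For JUN, DMSO 2.2 had 18.48 where the others had 16.71 to 16.91. For JUND, DMSO 2.1 had 50.47 where the others had 33.48 to 35.79. For DUSP14, SF153 2.1 had 2.136 where the other SF153 libraries had 3.013 to 3.176. For CD44, DMSO 2.1 had 210.7 where the other DMSO libraries had 252.9 to 261.3. Without DMSO 2.2 the JUN call remained, since JUN was called without each library in turn.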

How the results depend on the processing

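The call counts and the differences of the members and of the called list genes named were recomputed under 22 alternatives. The product of treatment and batch was recomputed under the pseudocount and scaling alternatives alone. Ratios, medians by exon number, profile likeness and marker values are given once, from the authors' values. The 4 members called lower became 1 (FOSB) after quantile normalization, with mitochondrial and small RNA genes removed, with equal totals per library, with libraries averaged by treatment and batch, and with the length and level trend removed; the number was 2 in batch 1 alone and 4 to 5 without 1 library. The number called higher became 1 (IER2) with mitochondrial and small RNA genes removed. Signs reversed for FOS (0.133 after quantile normalization, 0.005 with mitochondrial and small RNA genes removed, 0.095 with the trend removed), FOSL2 (0.012 and 0.185 under the first 2 of these), EGR1 (0.013 and 0.158) and IER2 (0.077, 0.218, 0.083 with the trend removed, and 0.009 with equal totals). The cause was not tested. Over all genes, 5785 calls became 3429 with averaging, 3131 in batch 1 alone and 3315 in batch 2 alone, where fewer samples were compared. With batch as a replicate block, 4 members were called lower and 5943 genes in all, and no member's call changed.

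Calls in the lists moved likewise. With averaging the calls numbered 5 against 11 for other immediate early genes, 2 against 6 for phosphatase and feedback genes, 2 against 6 for the cascade, 2 against 7 for SRF, TCF and CREB genes and 3 against 7 for textbook targets. In batch 1 alone the same lists had 5, 0, 3, 0 and 2 calls and the other AP-1 family 1, by limma; in batch 2 alone the first 4 had 5, 2, 3 and 3, and the other AP-1 family 1. Other immediate early genes had 7 calls after median-of-ratios scaling, 6 with equal totals and 7 to 10 without 1 library. The cascade had 3 after quantile normalization, SRF, TCF and CREB genes 4 with mitochondrial and small RNA genes removed and 4 to 8 without 1 library, and textbook targets 3 with the trend removed. Of the values, under alternatives, of the list genes that the naming rule chose, 515 kept direction and call, 56 lost the call and 0 reversed. Read depth is unknown, so its limits cannot be stated.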
